A study of Mus musculus with 9 samples.

Results

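The Ifi200 genes are a family of interferon-inducible mouse genes, and 7 of them were followed here: Aim2, Ifi203, Ifi204, Ifi207, Ifi209, Ifi211 and Mndal. They were chosen by symbol, with earlier results of these data known, from the 55401 genes of the expression table. RNA was sequenced from RAW264.7 cells, a mouse macrophage-like line from a tumor induced by Abelson murine leukemia virus, and levels are transcript abundances (TPM), a unit scaled by transcript length that can be compared between genes. The DMSO group received the solvent dimethyl sulfoxide, the LPS group received bacterial lipopolysaccharide with DMSO, and the LPS + Ska group received lipopolysaccharide with skatole, an indole compound made by gut bacteria. The labels and the results of the study give 24 h of treatment for every group, whereas its RNA-seq methods give a longer time. No genotype other than wild type was used. Each group had 3 samples, numbered 5, 6 and 7, all from 1 transformed cell line, and nothing in the labels says whether they came from separate cultures, so p-values measure only the spread between these samples.

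Most Ifi200 proteins pair a pyrin domain, which binds other pyrin domains, with one or more HIN-200 domains, which bind double-stranded DNA. AIM2 is the best known: on meeting DNA in the cytosol it gathers the adaptor ASC and caspase-1 into an inflammasome, which matures IL-1β and IL-18 and opens gasdermin D pores. Other members act mostly in the nucleus on transcription or feed DNA recognition into the STING pathway, and many are switched on by type I interferon, which macrophages make after lipopolysaccharide.

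The columns of the LPS and of the LPS + Ska group were tied. In both groups replicate 5 equalled the mean of replicates 6 and 7 within 1e-05 TPM for every gene above 0 in all 3 columns, 17950 of 17950 genes with LPS and 17658 of 17658 with LPS + Ska, against 10 of 15721 genes in DMSO. These groups thus hold at most 2 independent values a gene, and the SD of their 3 columns is not that of 3 independent samples. Results are given as deposited (n = 3 columns) and again with 2 recovered values a group. These were placed around replicate 5 at 0.5 of its distance to replicate 6. The factor of 0.5 is an assumption that the tie does not fix, so the spread and p-values with recovered values depend on it. Depth is unknown, since TPM keeps no read total, and no counting interval can be given. Of 8 macrophage markers, 7 had a mean of at least 1 TPM, led by Lyz2, Cd68 and Csf1r, and Mertk was listed at 0 in every column. All 12 markers of T cells, B cells, fibroblasts, epithelium, neutrophils and endothelium stayed below a mean of 1 TPM.

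The 7 genes lie in one cluster on chromosome 1, and their annotation bears on how far their reads can be told apart. In the GENCODE annotation of GRCm38, the assembly also called mm10, the Ifi200 genes of the table span chr1:173350879-174031810, or 681 kb, with Aim2 at one end (chr1:173350879-173466040, plus strand). Ifi209 (chr1:173630917-173647928, plus strand), Ifi207 (chr1:173723427-173741747, minus strand) and Ifi204 (chr1:173747293-173766943, minus strand) follow. Mndal (chr1:173849126-173942491), Ifi211 (chr1:173896345-173913046) and Ifi203 (chr1:173920407-173942672) are all on the minus strand and overlap. The annotated Mndal gene contains all of Ifi211 and nearly all of Ifi203, from 173920407 to 173942491, and shares 1 identical exon with Ifi203. Of the 100-base words in the Ifi211 transcript, 56.9% occur in another gene of the cluster, mainly Ifi205 (37.2%) and Ifi204 (19.6%), so the Ifi211 estimate depends most on how reads were assigned. The share was 16.9% for Ifi209, 10.7% for Ifi204, 6.38% for Mndal, 2.84% for Ifi203 and 0.790% for Ifi207, and no such word of Aim2 was found in the other genes. These shares are those of the reference transcripts and may differ in RAW264.7 cells.

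Promoter sequence is shown as a description, and its part in the changes of these genes was not tested. RefSeq promoters (GRCm38.p6, 250 bases before to 50 after each start) were found for 6 of the 7 genes, and Ifi204 had none in the table. They are sequences of the reference assembly, and those of the RAW264.7 cells were not examined and may differ. The interferon-stimulated response element core (ISRE core: GAAA, any 2 bases, GAAA), searched on both strands, stood in 4 of the 6, Ifi203, Ifi207, Ifi211 and Mndal, and in 5 of 6 other Ifi200 genes, against 3.99% of all 27025 genes with a promoter. Aim2 and Ifi209 had no match in this window. The 10-base match shown starts 35 to 41 bases before an annotated start in each of the 4 genes, with Ifi203 at the second of its starts, and is in capitals below. Mndal also held a match that is not shown, TTTCTCTTTC, at position -54 from its other annotated start. Ifi213, which was not called in any comparison, is shown for contrast. The Mndal window is shorter because annotated untranslated sequence covers it.
Ifi207, chr1:173741816-173741875, minus strand: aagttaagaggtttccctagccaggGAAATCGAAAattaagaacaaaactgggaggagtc
Ifi211, chr1:173913049-173913108, minus strand: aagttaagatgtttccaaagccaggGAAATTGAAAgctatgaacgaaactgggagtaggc
Ifi203, chr1:173942493-173942552, minus strand: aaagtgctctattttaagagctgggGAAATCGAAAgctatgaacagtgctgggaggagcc
Mndal, chr1:173880204-173880233, minus strand: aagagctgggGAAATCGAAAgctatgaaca
Ifi213, chr1:173599311-173599370, minus strand: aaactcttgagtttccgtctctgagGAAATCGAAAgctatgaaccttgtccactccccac

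The Mndal window was identical to the middle 30 bases of the Ifi203 window, and the Ifi207 and Ifi211 windows differed at 10 of 60 bases. The exact word GAAATCGAAA, picked out after the windows were seen, occurred in 16 of the 32851 promoters, 7 of them Ifi200 genes. Ifi213 carried the same word as Ifi207, and its 60 bases were identical to those of Ifi208, a gene at or near 0 TPM in every column. A match in these letters is a description and not evidence of binding.

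LPS raised 5 of the 6 members that could be tested, by 1.41 to 1.96 on the log2 scale, and Aim2 was the member that was not called. Genes were called at a Benjamini-Hochberg adjusted p below 0.05 in limma and a fold change above 1.5 or below 0.67, on log2(TPM + 1), which understates the change of low genes. Ifi211 passed the filter of a mean of 1 TPM only through its LPS columns, so that it had to differ between groups. At a mean of at least 5 TPM, which leaves it out, 4 of 5 members were called higher with LPS and 4 of 5 lower with LPS + Ska compared with LPS. Of the 10029 genes tested at that filter, 1286 were called higher with LPS and 516 lower with LPS + Ska. At the filter of 1 TPM, the background was 12.7% of 12819 tested genes called higher with LPS and 20.0% called lower. The median log2 fold change was 1.57 over the 6 members and -0.067 over all tested genes. Every LPS column lay above every DMSO column for 6 of 6 tested members, as it did for 30.3% of all tested genes. With recovered values the 5 members were still called higher, against 12.8% of all genes.

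Compared with LPS, LPS + Ska lowered 5 of the 6 tested members, Ifi203, Ifi204, Ifi207, Ifi211 and Mndal, with log2 fold changes of -0.96 to -1.73. The -1.73 was that of Ifi211, which was tested only through its high LPS columns, and the others ran to -1.14. At a mean of at least 5 TPM, without Ifi211, the median over the members was -0.96. Over all tested genes 6.14% were called lower and 3.35% higher. The median was -0.98 over the 6 members and -0.096 over all tested genes. Every LPS + Ska column lay below every LPS column for 6 of 6, as for 34.0% of all genes. With recovered values the 5 members were still called lower, against 4.99% of all genes, and Aim2 was still not called. Both comparisons use the LPS columns and are not independent of each other.

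**Figure D1:**
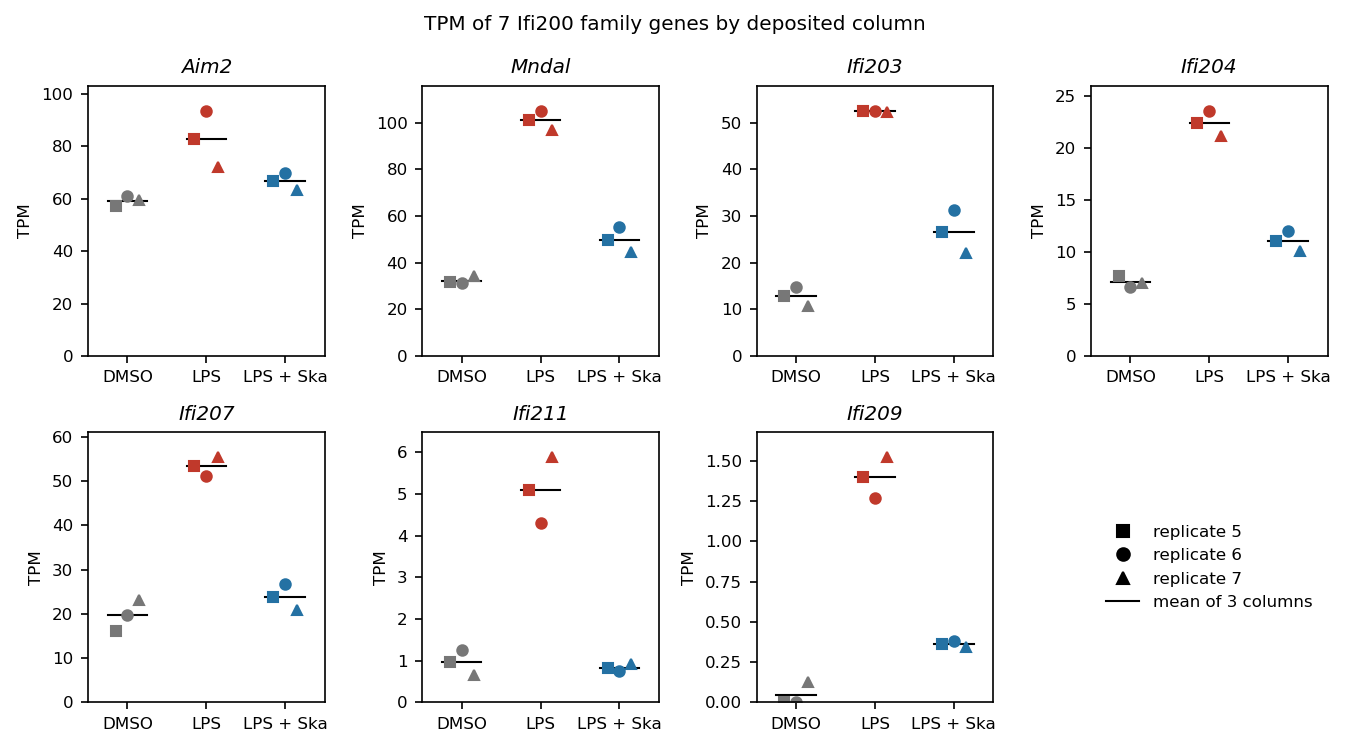
TPM of the 7 genes (vertical axes, each from 0) in the 3 deposited columns of DMSO, LPS and LPS + Ska; symbols mark the replicate number and lines the mean of 3 columns. The LPS columns stand above the others in every panel, and replicate 5 sits on the mean in LPS and LPS + Ska because those columns are tied.

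Aim2 (ENSMUSG00000037860), the DNA sensor of the inflammasome, was the most abundant member in DMSO and the tested member with the smallest log2 change with LPS. Its DMSO level was 57.1, 60.9 and 59.7 TPM in replicates 5, 6 and 7. With LPS it was 82.9, 93.7 and 72.1 TPM, and with LPS + Ska 66.7, 69.9 and 63.4 TPM. The columns of the 3 groups did not overlap, but LPS replicate 7 came within a few TPM of the highest LPS + Ska column. The log2 fold change of LPS compared with DMSO was 0.47 (standard error 0.09, limma adjusted p = 0.0015), inside the fold change limit. That of LPS + Ska compared with LPS was -0.30 (standard error 0.09, limma adjusted p = 0.033), also inside the limit, and its adjusted p ran from 0.011 to 0.12 over the alternatives. The 95% interval of the LPS change of Aim2, 0.27 to 0.67, lay below that of each of the other 5 tested members, the nearest being Ifi207 at 1.11 to 1.70, although the difference between genes was not tested itself.

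Mndal (ENSMUSG00000090272), named for its likeness to the human myeloid nuclear differentiation antigen, was the highest member with LPS. It stood at 31.5, 31.1 and 34.4 TPM in DMSO and at 101, 105 and 96.6 TPM with LPS. With LPS + Ska it was 49.8, 55.2 and 44.5 TPM. All LPS columns were well above all others, and the LPS + Ska columns lay between LPS and DMSO without overlap. Mndal rose by 1.61 with LPS (standard error 0.08, limma adjusted p = 5.1e-07) and changed by -1.01 from LPS to LPS + Ska (standard error 0.08, limma adjusted p = 8.1e-05, 6.3e-04 with recovered values).

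Ifi203 (ENSMUSG00000039997) overlaps Mndal in the annotation. Its TPM were 12.8, 14.8 and 10.7 in DMSO, 52.4, 52.6 and 52.2 with LPS, and 26.6, 31.2 and 22.1 with LPS + Ska. The LPS columns were close together, the LPS + Ska columns spread more widely, and no groups overlapped. The log2 fold change was 1.96 for LPS compared with DMSO (standard error 0.13, limma adjusted p = 2.9e-06). From LPS to LPS + Ska it was -0.96 (standard error 0.13, limma adjusted p = 0.0012, 0.0054 with recovered values).

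Because Mndal and Ifi203 share an exon and overlap, their TPM were also added. The sum was 45.1 ± 0.812 TPM for DMSO, 153 ± 4.45 for LPS and 76.5 ± 9.89 for LPS + Ska (each SD, n = 3 columns). This sum was 3.40 times as high with LPS as with DMSO and 0.499 times as high with LPS + Ska as with LPS.

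Ifi204 (ENSMUSG00000073489) encodes p204, a mouse relative of human IFI16 that takes part in macrophage differentiation and in sensing DNA. It was at 7.68, 6.60 and 6.97 TPM in DMSO and at 22.3, 23.6 and 21.1 TPM with LPS. With LPS + Ska it was at 11.0, 12.0 and 10.0 TPM, between the other groups and overlapping neither. The log2 fold change was 1.53 with LPS (standard error 0.09, limma adjusted p = 1.6e-06) and -0.96 from LPS to LPS + Ska (standard error 0.09, limma adjusted p = 2.0e-04, 0.0024 with recovered values).

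Ifi207 (ENSMUSG00000073490), another pyrin and HIN domain gene, went from 16.1, 19.8 and 23.2 TPM in DMSO to 53.3, 51.2 and 55.4 with LPS. With LPS + Ska it was 23.7, 26.7 and 20.8 TPM. Here the LPS + Ska columns overlapped those of DMSO and both lay below every LPS column. The log2 fold change was 1.41 with LPS (standard error 0.13, limma adjusted p = 1.8e-05) and -1.14 from LPS to LPS + Ska (standard error 0.13, limma adjusted p = 4.2e-04, 0.0033 with recovered values).

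Ifi211 (ENSMUSG00000026536) was a low gene, tested only because its LPS columns lifted its mean over 1 TPM. It was at 0.957, 1.26 and 0.662 TPM in DMSO, 5.09, 4.30 and 5.88 with LPS, and 0.833, 0.745 and 0.921 with LPS + Ska. The LPS + Ska columns fell inside the DMSO range. Its mean TPM with LPS was 6.11 times that with LPS + Ska, and on log2(TPM + 1) the change was -1.73 (standard error 0.16, limma adjusted p = 1.7e-04, 0.0025 with recovered values). With LPS it rose by 1.64 (standard error 0.16, limma adjusted p = 2.9e-05), and its mean TPM was 5.31 times that in DMSO. The pseudocount matters at this level: with 0.1 in place of 1 the changes were 2.32 with LPS and -2.47 from LPS to LPS + Ska. Its shared sequence makes this estimate the least certain of the set.

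Ifi209 (ENSMUSG00000043263) was too low to enter the tests. It was listed at 0 in 2 DMSO columns and at 0.129 TPM in the other, at 1.40, 1.27 and 1.52 TPM with LPS, and at 0.363, 0.382 and 0.344 TPM with LPS + Ska. The 3 groups did not overlap, with LPS the highest. In a fit with no filter the change from LPS to LPS + Ska was -0.81 on log2(TPM + 1) (limma adjusted p = 1.7e-04).

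**Figure D2:**
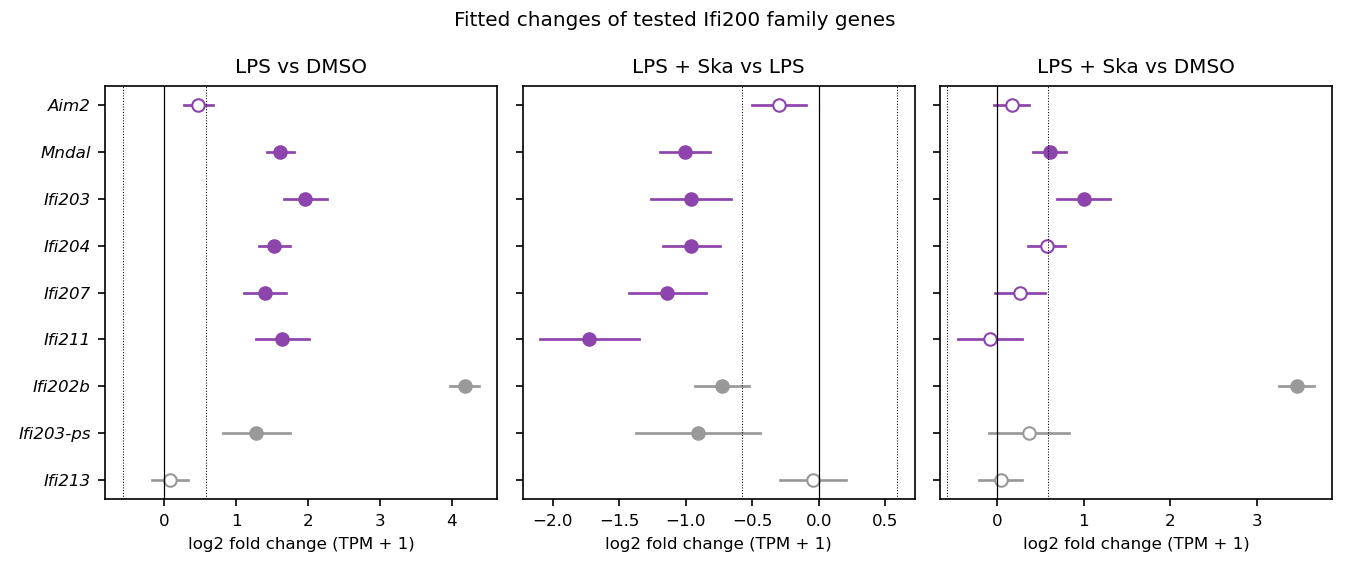
Log2 fold change on log2(TPM + 1) (horizontal axis) with its 95% interval for 6 tested members (purple) and 3 other tested Ifi200 genes (grey) in the 3 comparisons; filled points were called changed, and dotted lines are the fold change limits. With LPS + Ska compared with LPS, 5 members lie beyond the lower limit and Aim2, at -0.30, lies inside it.

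Compared with DMSO, cells given LPS + Ska kept a higher level of only some members. Ifi203 was called higher, at 1.00 (standard error 0.13, limma adjusted p = 1.6e-04), and so was Mndal, at 0.61 (standard error 0.08, limma adjusted p = 1.7e-04), which made 2 of 6 against 11.4% of all tested genes called higher and 25.3% lower. Ifi204 had a change of 0.57 (limma adjusted p = 5.7e-04), just inside the fold change limit. For Ifi207 the change was 0.26 with a 95% interval of -0.03 to 0.55 (limma adjusted p = 0.10), and for Aim2 it was 0.17 with an interval of -0.03 to 0.37 (limma adjusted p = 0.13). Ifi211 was at -0.09 with an interval of -0.46 to 0.28 (limma adjusted p = 0.67), which does not show that it was equal in both groups. The median was 0.42 over the 6 members and -0.18 over all tested genes. The LPS + Ska columns lay above all DMSO columns for 4 of the 6, as for 23.0% of all genes.

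The calls against DMSO were the least settled. Scaling the columns by their median ratio moved the median of all genes to -0.0033, and Ifi204 was then called, at 0.75. It was also called without DMSO replicate 5, at 0.62, or without LPS + Ska replicate 7, at 0.63. Mndal lost its call without DMSO replicate 6, at 0.58, or without LPS + Ska replicate 6, at 0.53.

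As a share of the rise in mean TPM from DMSO to LPS, 35.0% was left with LPS + Ska for Ifi203, 31.6% for Aim2, 25.8% for Ifi204, 25.6% for Mndal and 12.0% for Ifi207. For Ifi211 the mean with LPS + Ska lay below the DMSO mean. With 1 column left out, a check chosen after seeing the data, the share for Ifi207 ran from 7.09% without DMSO replicate 5 to 16.4% without LPS + Ska replicate 7, that for Aim2 from 24.7% to 40.9% and that for Ifi203 from 29.2% to 40.8%. For Ifi211 the same value ran from -6.91% to 0.552%. Over the sum of all 7 genes, 25.3% of the rise was left. The summed TPM was 132 ± 5.20 for DMSO, 318 ± 13.4 for LPS and 179 ± 17.0 for LPS + Ska (each SD, n = 3 columns). These sums are 2.41 times as high with LPS as with DMSO and 0.563 times as high with LPS + Ska as with LPS.

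**Figure D3:**
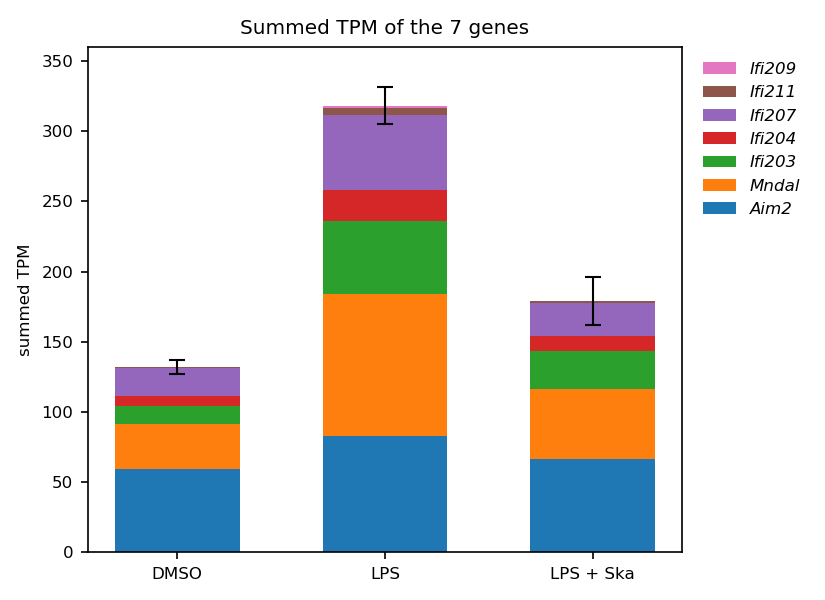
Mean TPM of the 7 genes stacked by group (vertical axis, summed TPM from 0), with bars of 1 SD of the sum over 3 columns. The sum goes from 132 in DMSO to 318 with LPS and 179 with LPS + Ska, and the Aim2 block is 59.2, 82.9 and 66.7 TPM high.

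The makeup of the sum differed between groups. Aim2 made up 44.8% of it in DMSO (44.0% to 45.3% over the columns), 26.0% with LPS (23.7% to 28.2%) and 37.3% with LPS + Ska (35.7% to 39.1%), and these ranges did not overlap. Mndal made up 24.5%, 31.7% and 27.8%, and Ifi203 9.71%, 16.5% and 14.8%. These shares do not depend on how the columns were scaled.

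The order of levels was Aim2, Mndal, Ifi207, Ifi203, Ifi204, Ifi211 and Ifi209 in DMSO, with no overlap between neighbours. With LPS, Mndal stood above Aim2, and Ifi207 (53.3 TPM on average) and Ifi203 (52.4 TPM) overlapped. With LPS + Ska, Aim2 was again first and Mndal the next, and Ifi203 (26.6 TPM) and Ifi207 (23.7 TPM) overlapped. Among the 12912 genes with a mean of at least 1 TPM in DMSO, Aim2 was higher than 76.9% and Ifi204 higher than 26.7%.

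Of the 7 other Ifi200 genes in the table, 3 had levels high enough to test. Ifi202b (ENSMUSG00000026535) encodes p202, which has HIN domains but no pyrin domain and is known to restrain AIM2. It was at 2.17, 1.52 and 1.82 TPM in DMSO, 50.3, 50.9 and 49.7 with LPS, and 30.0, 29.3 and 30.7 with LPS + Ska. It rose by 4.18 with LPS (limma adjusted p = 3.5e-09), more than any member, and fell by 0.73 with LPS + Ska (limma adjusted p = 7.1e-04, 0.0089 with recovered values), which left it 3.46 above DMSO (limma adjusted p = 1.8e-08).

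The pseudogene Ifi203-ps, like Ifi211, was tested only through its LPS columns. It changed by 1.28 with LPS (limma adjusted p = 5.5e-04) and by -0.91 with LPS + Ska compared with LPS (limma adjusted p = 0.011, but 0.051 without LPS replicate 5), and its columns were at 0.311, 0.592 and 0.464 TPM for DMSO, 2.55, 3.05 and 2.05 for LPS, and 0.910, 1.35 and 0.467 for LPS + Ska. Ifi213 was not called, at 16.1 ± 2.67, 16.9 ± 0.702 and 16.4 ± 0.0021 TPM (SD, n = 3 columns), with a change of 0.08 for LPS (95% interval -0.17 to 0.33) and -0.04 for LPS + Ska compared with LPS (interval -0.29 to 0.21). Ifi205, Ifi206, Ifi208 and Ifi214 were listed at 0 in every DMSO column and did not pass 0.473 TPM anywhere. The 5 nearest annotated genes on either side of the cluster, mostly olfactory receptors, did not pass 0.262 TPM in any column, and Cadm3, inside it, was listed at 0 in each.

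**Figure D4:**
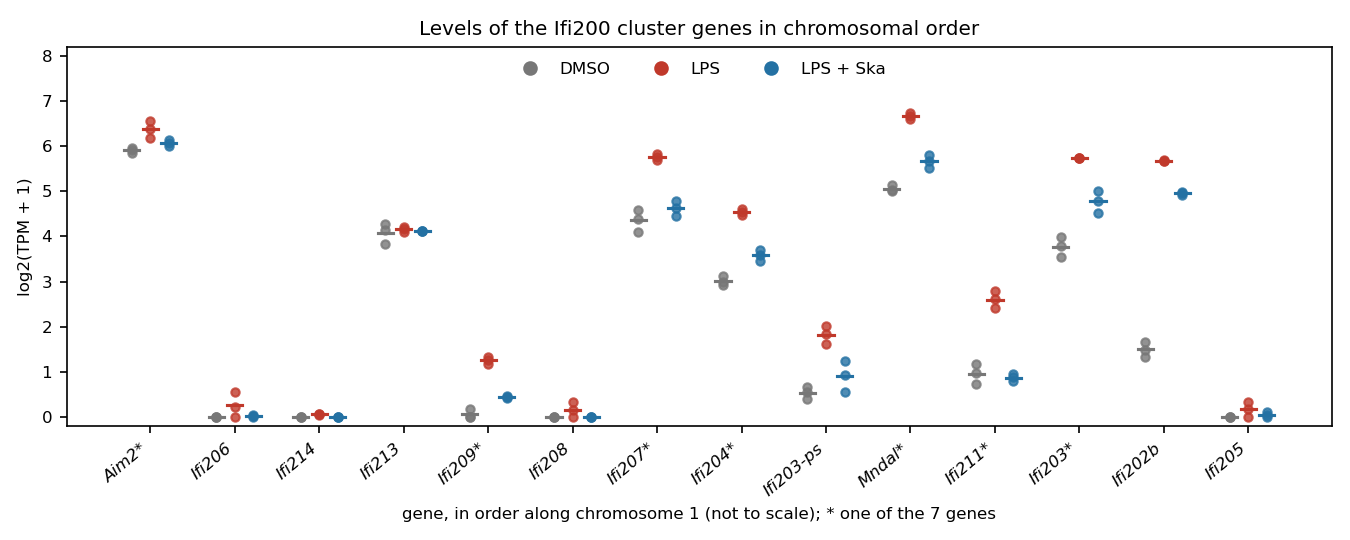
Log2(TPM + 1) (vertical axis) of 14 Ifi200 genes in their order along chromosome 1 (horizontal axis, not to scale), with 1 point per column and a line at the group mean. Ifi213 overlaps across groups, Ifi202b goes from near 1.83 to 50.3 TPM with LPS, and 4 genes stay near 0.

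The partners of AIM2 did not share one direction. Of 8 tested inflammasome genes 3 were called higher and 2 lower with LPS, beside 12.7% and 20.0% of all tested genes. From LPS to LPS + Ska, 2 were called higher and 2 lower, beside 3.35% and 6.14% of all tested genes (median -0.28, against -0.096 over all genes). Pycard, which encodes the adaptor ASC, did not pass 0.0866 TPM in any column, and RAW264.7 cells are known for lacking it, which limits them as a model of the AIM2 inflammasome. Casp1, the protease of the complex, went from 53.0 ± 1.63 to 80.3 ± 2.23 TPM between LPS and LPS + Ska (each SD, n = 3 columns), and rose by 0.59 (limma adjusted p = 1.7e-04), opposite to the members, but was inside the fold change limit, at 0.57, without LPS replicate 7 or LPS + Ska replicate 6. Ninj1, which ruptures the membrane of dying cells, rose by 0.63 (limma adjusted p = 2.4e-04) and was inside the limit, at 0.57, without LPS + Ska replicate 7. Both genes were lower with LPS than with DMSO, Ninj1 by 1.18, which was called, and Casp1 by 0.52, inside the limit. For LPS + Ska compared with DMSO, Ninj1 was at -0.55 and Casp1 at 0.07, neither called. The substrates Il1b and Il18 fell by 1.41 (limma adjusted p = 0.0023) and 0.91 (limma adjusted p = 9.4e-04). Casp4, the mouse caspase-11 that binds lipopolysaccharide, changed by -0.33, the interferon regulatory factor gene Irf1 by -0.32 and the pore gene Gsdmd by 0.05, none of them called.

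In the cGAS-STING pathway, the other main route of cytosolic DNA recognition, LPS raised 2 and lowered 4 of 14 tested genes, beside 12.7% and 20.0% of all tested genes. LPS + Ska lowered 2 and raised none compared with LPS, beside 6.14% and 3.35%, with a median of -0.15. The genes that fell were Zbp1, a sensor of Z-form nucleic acids whose mean passed 1 TPM only through its LPS columns, by 1.87 (limma adjusted p = 3.1e-04) and Irf7, an interferon-induced transcription factor, by 1.33 (limma adjusted p = 0.0037). The DNA sensor Cgas changed by -0.34 and the adaptor Sting1 by -0.40, both inside the fold change limit, as was the nucleotide hydrolase gene Samhd1 at -0.44. Nlrc3, a brake on STING, changed by 0.58, just inside the limit, and was called with recovered values. Of the nucleases, Rnaseh2a and Rnaseh2c changed by 0.32 and 0.25 and were not called. Trex1 was listed at 0 in 1 DMSO and 1 LPS column beside 11.0 and 16.6 TPM in others, so that its change of 1.52 had a standard error of 1.07.

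Among 7 tested genes of type I interferon signalling, LPS raised 2 and lowered 3, beside 12.7% and 20.0% of all tested genes. LPS + Ska lowered 2 and raised none compared with LPS, beside 6.14% and 3.35% (median -0.28). Usp18, a feedback inhibitor of the receptor, fell by 1.36 (limma adjusted p = 0.010, but 0.063 with a pseudocount of 0.1) and Stat2 by 0.85 (limma adjusted p = 0.0063). STAT2 and IRF9 are subunits of the factor that binds the response element searched for above, and Irf9 changed by -0.34, inside the limit. The kinase genes Tyk2 and Jak1 changed by -0.28 and -0.26, and the receptor genes Ifnar1 and Ifnar2 by 0.03 and 0.01, none called. Ifnb1, the interferon β gene, was listed at 0 in every DMSO and LPS + Ska column and did not pass 0.112 TPM with LPS.

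**Figure D5:**
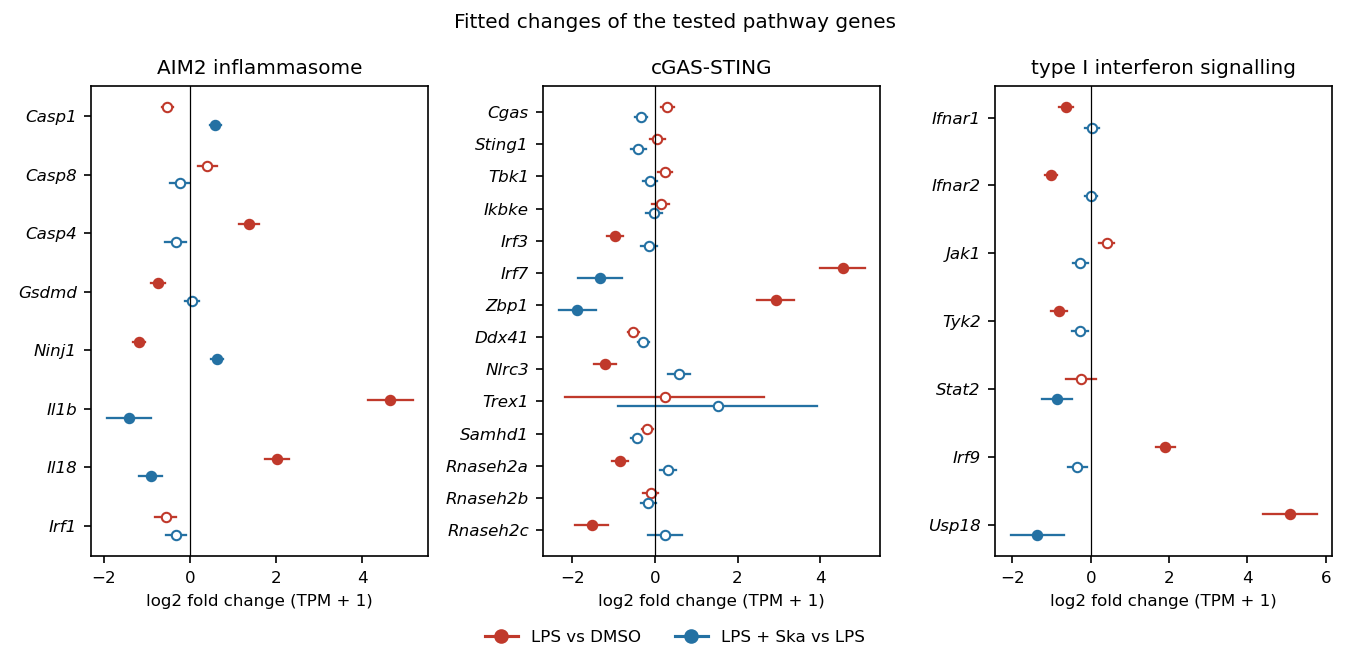
Log2 fold change on log2(TPM + 1) (horizontal axes) with 95% intervals for the tested genes of 3 pathway lists, for LPS compared with DMSO (red) and LPS + Ska compared with LPS (blue); filled points were called. Il1b, Il18, Irf7, Zbp1 and Usp18 were called higher with LPS and lower with LPS + Ska. Stat2 was called lower with LPS + Ska alone, while Casp1 and Ninj1 were called higher with LPS + Ska than with LPS. Ninj1 was called lower with LPS than with DMSO.

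The genes whose profiles over the 9 columns of log2(TPM + 1) were most like the mean profile of the 6 tested members were Rars (Pearson r = 0.994), 2700069I18Rik (0.994), Rsad2 (0.993), Parp14 (0.993) and Rlf (0.992). Rsad2, an antiviral gene, and Parp14 are known interferon-inducible genes. Rsad2 averaged 0.0906 TPM in DMSO, 4.26 with LPS and 0.592 with LPS + Ska, while Rars, an arginyl-tRNA synthetase gene, averaged 185, 255 and 205 TPM. Such likeness is common with 3 groups and tied columns, since 515 genes had an r above 0.9.

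Macrophage markers did not share one direction from LPS to LPS + Ska. Lyz2, the lysozyme gene, had 9151 ± 453 TPM for DMSO, 4423 ± 204 for LPS and 10061 ± 146 for LPS + Ska (each SD, n = 3 columns), and rose by 1.19 from LPS to LPS + Ska (limma adjusted p = 4.3e-06). The Fc receptor gene Fcgr1 changed by -0.59 (limma adjusted p = 1.9e-04), just past the limit, and was not called with median-ratio scaling (-0.49), without mitochondrial and ribosomal protein genes (-0.57) or without LPS replicate 7 (-0.58). Itgam, Csf1r, Ptprc and Cd68 changed by 0.39, -0.16, 0.15 and -0.11 and were not called, and Adgre1 by -0.07. The part of these in the changes of the Ifi200 genes was not tested.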

How the data were processed

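RNA-seq was made from 9 samples. Per the submitters' processing notes, the authors used fastp 0.20.1, HISAT2 2.2.1, StringTie 2.0 and mm10. The annotation and the strandedness of counting are not given in the sources used here, so reads of overlapping genes may not be told apart. The values the authors deposited are TPM for 55401 Ensembl genes, of which 55141 matched a symbol. Column sums ran from 999895 to 1000145.

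Changes were tested with limma 3.58.1 in R 4.3.3 (functions lmFit and eBayes, with the trend option) over all 9 columns of log2(TPM + 1), keeping 12819 genes whose mean TPM reached 1. The procedure was run on 15 simulated data sets, with and without tied columns and with 1 spread for all genes. Only the 2 comparisons with DMSO were simulated, so LPS + Ska compared with LPS was not checked in this way. A gene was called at a Benjamini-Hochberg adjusted p below 0.05 over all tested genes and a fold change above 1.5 or below 0.67. Recovered values put 2 values in place of the 3 tied columns of a group, at replicate 5 plus and minus 0.5 of its distance to replicate 6. The factor of 0.5 was assumed and is not fixed by the tie. The other settings were 0.1 as pseudocount, no filter or a minimum mean of 5 TPM, columns scaled by their median ratio, TPM scaled again after genes for ribosomal proteins and of the mitochondrial genome were dropped, a fit of the compared groups alone or without the trend, a call on the adjusted p alone, a replicate block, recovered values, and each column left out. Leaving out columns for the share of the LPS rise left was added after seeing the data.

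The members and gene lists were chosen with earlier results of these data known. Named were all members, the other Ifi200 genes of the table, up to 6 genes a list with the largest change from LPS to LPS + Ska and those against their list, and the 5 genes most like the members. 1 gene of the interferon signalling list is not reported here. Older symbols were matched to current ones. Words of 100 bases were compared among transcripts of the cluster in GENCODE vM21 (GRCm38). Motifs searched in 32851 RefSeq promoters (GRCm38.p6) were the ISRE core, the interferon-gamma activated site TTCNNNGAA and the NF-kB consensus. The ISRE core was searched on both strands, and TTCNNNGAA reads the same on both. The NF-kB consensus was searched on the strand of the gene only, so matches on the other strand were not counted. In the cluster, TTCNNNGAA was found in Ifi202b and the NF-kB consensus in Ifi209. In the order named, the motifs stood in 3.44%, 8.30% and 5.89% of these promoters. Protein identity between members was not analysed here. Python 3.11.15, pandas 2.3.3, numpy 2.4.6 and matplotlib 3.10.9 were used for tables and drawings.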

Additional observations from a re-analysis of the deposited data

How the results depend on the processing

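The calls of the members for LPS compared with DMSO and for LPS + Ska compared with LPS held under every alternative in which a member was tested, except that Aim2 was called on the adjusted p alone (0.47 and -0.30) and Ifi211 was not tested at a mean TPM of at least 5. With no filter Ifi209 was tested and called, at 1.20 for LPS compared with DMSO and -0.81 for LPS + Ska compared with LPS. For LPS + Ska compared with DMSO, Ifi204 was called with a pseudocount of 0.1 (0.63), median-ratio scaling (0.75), TPM without mitochondrial and ribosomal protein genes (0.63) and the adjusted p alone (0.57), and ran from 0.51 to 0.63 with 1 column left out, past the limit without DMSO replicate 5 or LPS + Ska replicate 7. Mndal ran from 0.53 to 0.68, so that 1 to 3 members were called. Ifi211, never called there, ran from -0.20 to 0.02.

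Among other genes, a mean TPM of at least 5 left 1 of 2 other Ifi200 genes called higher with LPS and 1 lower with LPS + Ska. Of 13 cGAS-STING genes it left 1 called higher with LPS, 1 lower with LPS + Ska and 1 higher for LPS + Ska compared with DMSO. At that filter 1286 of 10029 tested genes were called higher with LPS. For LPS + Ska, 516 were called lower compared with LPS and 1155 higher compared with DMSO. Leaving out 1 column gave 1 to 2 of 3 other Ifi200 genes lower and 1 to 2 of 8 inflammasome genes higher with LPS + Ska compared with LPS. It gave 0 to 1 of 14 cGAS-STING genes higher there, and 3 to 6 lower for LPS + Ska compared with DMSO. Of all 12819 tested genes, these fits called 316 to 503 higher and 576 to 996 lower with LPS + Ska compared with LPS. Compared with DMSO they called 3152 to 3275 lower. A pseudocount of 0.1, median-ratio scaling, TPM without mitochondrial and ribosomal protein genes and recovered values each called 1 of 14 cGAS-STING genes higher with LPS + Ska compared with LPS. Over all tested genes these settings called 479, 595, 442 and 362 higher. Median-ratio scaling left 1 of 8 inflammasome and 3 of 14 cGAS-STING genes lower for LPS + Ska compared with DMSO, beside 2246 of 12819 tested genes. The adjusted p alone gave 4 of 8 inflammasome genes lower in both LPS comparisons. Of 14 cGAS-STING genes it gave 4 higher with LPS, 2 higher and 6 lower with LPS + Ska, and 8 lower compared with DMSO. Of 7 interferon signalling genes it gave 5 lower with LPS + Ska compared with LPS, where a pseudocount of 0.1 left 1. Many genes pass that rule. Of 12819 tested genes it gave 3354 higher and 4380 lower with LPS. For LPS + Ska it gave 1139 higher and 2524 lower compared with LPS, and 5201 lower compared with DMSO. The summed TPM became 160, 395 and 225 without mitochondrial and ribosomal protein genes. The causes were not tested.

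Median-ratio scaling moved the split of all calls to 2001 higher and 2101 lower for LPS compared with DMSO (1630 and 2559 as deposited), 595 and 540 for LPS + Ska compared with LPS (429 and 787), and 2212 and 2246 for LPS + Ska compared with DMSO (1457 and 3243). The deviations of same-numbered LPS and LPS + Ska columns correlated at 0.38, 0.15 and 0.13, other pairs at -0.032 to 0.080, and with tied columns these are not 3 separate pairs. The samples were not taken as paired, and these correlations do not settle whether they were. A replicate block changed no call of a member, with the change from LPS to LPS + Ska at -1.01 for Mndal (limma adjusted p = 6.7e-04) and -0.30 for Aim2 (limma adjusted p = 0.027).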
